A study of Mus musculus with 6 samples.

Results

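The matrix metalloproteinases, the ADAM, ADAMTS and ADAMTS-like families and the inhibitors of these enzymes were compared between the anterior and the posterior palate of the E14.0 mouse embryo. The set held 44 protein-coding genes, matched by symbol to 1 Ensembl identifier each among the 56691 identifiers counted. It comprised 13 MMP, 4 ADAM, 18 ADAMTS and 4 ADAMTS-like genes and 5 inhibitor genes, namely Timp1, Timp2, Timp3, Timp4 and Reck. The anterior 1/3 and the posterior 1/3 of the palatal shelves of C57BL/6J embryos were dissected at E14.0, and bulk RNA-seq gave 3 libraries for each region. The embryos carried no named mutation and received no named treatment. The paper calls the samples biologically independent, but the labels do not say whether shelves of several embryos were pooled. Nor do they say whether the anterior and posterior libraries came from the same embryos. P-values therefore measure the spread between these libraries, which may in part be technical.

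The palatal shelves are outgrowths of cranial neural crest mesenchyme under an epithelium, and their mesenchyme is rich in hyaluronan, versican, fibrillins and fibrillar collagens while they grow, rise above the tongue and meet. The MMPs are zinc-dependent enzymes, secreted or held at the cell surface, that are made as inactive precursors and cleave collagens and other matrix proteins. The ADAMs are membrane proteases that shed the outer parts of other surface proteins. The ADAMTS proteases are secreted, and their groups cut large proteoglycans such as versican and aggrecan, remove the amino-terminal propeptides of procollagens, or act on fibrillin and other matrix proteins, whereas the ADAMTS-like proteins share their accessory domains and lack the protease domain. The TIMPs and Reck block many of these enzymes, so that the balance of both sides bears on matrix turnover.

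Counts on the reverse strand added up to between 11378736 and 15172733 per library, and levels are given as CPM, counts per library total scaled by edgeR's TMM factors. A gene with 0 counts could still hold up to 3, or 0.206 to 0.26 CPM, a bound for counting error only. The region labels fitted the known regional genes, with log2 fold changes, posterior over anterior, of -5.04 for Shox2 and 4.62 for Meox2. Posterior replicates 2 and 3 stood apart from the other 4 libraries, with 6.12% and 5.939% of reads mapping to several places against 8.449% to 8.772%, and with 0.9727% and 1.137% of counts on mitochondrial genes against 2.701% to 2.974%. Both are posterior, so the region and this difference cannot be told apart within them. When a term for these library groups is added, the fit takes the region difference from posterior replicate 1 and the anterior libraries, and values from it are named as such. A call in that fit, or without posterior replicates 2 and 3, thus rests on 1 posterior library, which is assumed to vary like the libraries that supply the spread.

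With region as the only term, the members that passed the test were higher in the posterior palate. Of the 40 members with enough counts for the test, 10 were called higher in the posterior palate at an adjusted p below 0.05 in edgeR's quasi-likelihood test, against 4.87% of all 15673 genes tested. They were 7 ADAMTS genes (Adamts1, Adamts7, Adamts9, Adamts15, Adamts16, Adamts17 and Adamts20), the ADAMTS-like gene Adamtsl2, the MMP gene Mmp16 and the inhibitor gene Timp3. By edgeR 0 members were called higher in the anterior palate, against 2.59% of all genes tested. At an unadjusted p below 0.05 the anterior count was also 0, against 9.32% of all genes tested, and the posterior count was 24, against 15.9%. DESeq2 likewise called 0 members anterior and 20 posterior, where it called 4.06% and 8.56% of all genes tested. In whole tissue, fewer cells of a type and less RNA per cell cannot be told apart. The log2 fold change was positive for 35 and negative for 5 of the 40 members, with a median of 0.59 where the median over all genes tested was -0.004.

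The posterior libraries did not carry this difference equally. All 3 posterior libraries lay above all 3 anterior libraries for 18 of the 40 members, against 14.7% of all genes tested, and the reverse held for 1 member, Mmp28, against 13.4%. Posterior replicate 1 was above every anterior library for 20 members, against 33% of all genes tested, within the anterior range for 11 and below it for 9, against 32.5%. Posterior replicates 2 and 3 were both above every anterior library for 31 members, against 33.8% of all genes tested. For 34 of the 40 members both lay above posterior replicate 1 as well, which was so for 43.5% of all genes tested. With the library-group term 9 members were called higher in the posterior palate, against 4.4% of all genes tested, and 1 in the anterior palate, against 3.21%. The fits shared 8 of the posterior calls, all those of the region-only fit but Adamts1 and Adamts20, and the term added Adam33 to the posterior and Thsd4 to the anterior calls. The median of the members' log2 fold changes was 0.22 with the term, with 27 positive and 13 negative values, and 12 members had different signs in the 2 fits. The members' transcripts were also long, with a median exon length of 6727 bases against 4248 bases over all genes tested. With a correction for length the median log2 fold change was 0.47, 32 values were positive, 14 members were called posterior, against 5.33% of all genes tested, and 0 anterior by edgeR, against 3.41%. The part of the library difference and of length in these results was not tested further.

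**Figure D1:**
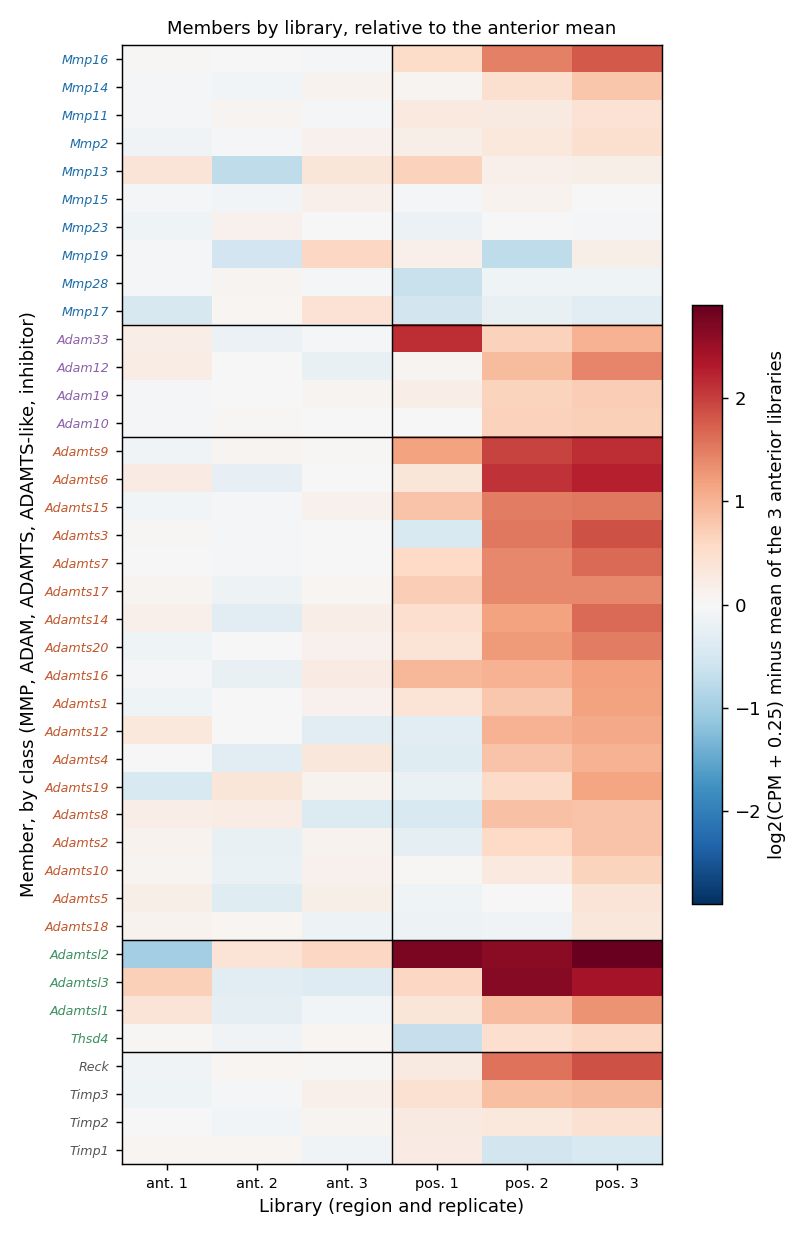
Level of the 40 members tested in each library (columns) as the log2(CPM + 0.25) minus the mean of the 3 anterior libraries (colour, red higher and blue lower), with members in rows by class and ordered by log2 fold change. Posterior replicates 2 and 3 were both above every anterior library for 31 members, and posterior replicate 1 for 20.

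Among the MMPs, 1 of the 10 genes tested was called, higher in the posterior palate, against 4.87% of all genes tested. The class median of the log2 fold changes was 0.14 (0.11 with the library-group term). With 1 replicate left out it ran from -0.0073 to 0.29. The called gene was Mmp16 (ENSMUSG00000028226.16, chromosome 4 from 17852893 to 18119145 in GRCm38), which codes for a membrane-anchored MMP. It had 33.8, 33.3 and 32.4 CPM in anterior replicates 1, 2 and 3. In the posterior palate it had 48.4, 91.4 and 115 CPM. The anterior libraries were nearly level, and the posterior libraries were all higher but spread over a wide range. For Mmp16 the log2 fold change was 1.36 ± 0.28 (SE, adjusted p = 0.0286 from edgeR) and 0.54 ± 0.13 (SE, adjusted p = 0.0416) with the library-group term.

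The most abundant MMP per length was Mmp2, a gelatinase, with 108 CPM per kb of exon in anterior and 134 in posterior palate. It had 341, 355 and 396 CPM in the anterior and 409, 448 and 500 CPM in the posterior libraries. The groups did not overlap, but the log2 fold change of 0.31 ± 0.12 (SE, adjusted p = 0.147), or 0.17 with the library-group term, did not pass the test. Mmp14 was next per length with 50.7 and 70.6 CPM per kb. It codes for the membrane-anchored MMP that activates the Mmp2 precursor. Its log2 fold change was 0.48 ± 0.18 (SE, adjusted p = 0.151), with 319 CPM in posterior replicate 1, inside the anterior range of 287 to 325 CPM, and 418 and 525 CPM in replicates 2 and 3, and it was 0.08 with the library-group term. Mmp11, a stromelysin that leaves the cell in active form, had 24.5 and 30.5 CPM per kb and a log2 fold change of 0.32 ± 0.09 (SE, adjusted p = 0.0884) that was 0.27 (adjusted p = 0.145) with the library-group term and was called with the length correction (adjusted p = 0.037). The regions did not overlap in Mmp11, whose posterior libraries held 82.3, 81.3 and 90.9 CPM against 65.7 to 71.8 CPM in the anterior ones.

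The other MMPs showed no difference that passed the test. Mmp13, the interstitial collagenase, had 12.2 to 17.6 CPM in the posterior and 6.47 to 14.4 CPM in the anterior libraries, which overlap, and its log2 fold change was 0.27 ± 0.31 (SE) and 0.60 ± 0.37 (SE) with the library-group term. Mmp15 and Mmp23, both anchored in the membrane, had log2 fold changes of 0.02 and -0.06 (standard errors 0.10 and 0.17). Mmp17, also at the cell surface, had -0.39 ± 0.25 (SE). Mmp28 was the tested member whose anterior libraries all exceeded the posterior ones, with 9.71, 10.8 and 9.95 CPM against 6.36, 9.32 and 9.33 CPM. Its log2 fold change was -0.28 ± 0.19 (SE, adjusted p = 0.368), and -0.67 ± 0.18 (SE, adjusted p = 0.0691) with the library-group term.

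Several MMPs were near the limit of detection. Mmp19 was tested at 0.289 to 1.12 CPM, and 94.8% of the reads over it lay on the other strand, where Tmem198b overlaps its exons. Of the members under the count filter, Mmp3 had 0 to 4 counts and Mmp10 had 0 to 5 counts per library. These stromelysins were thus close to the limit of detection at this depth. Mmp24 had 0 to 3 counts in 5 libraries and 42 in posterior replicate 2, with 93.5% of the reads over it on the other strand, where BC029722 lies. In the edgeR fit without the count filter, which called 5.01% of its genes higher in the posterior palate, Mmp24 had an adjusted p of 0.0431, resting on the 42 counts of that library, and Mmp3 and Mmp10 were not called.

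**Figure D2:**
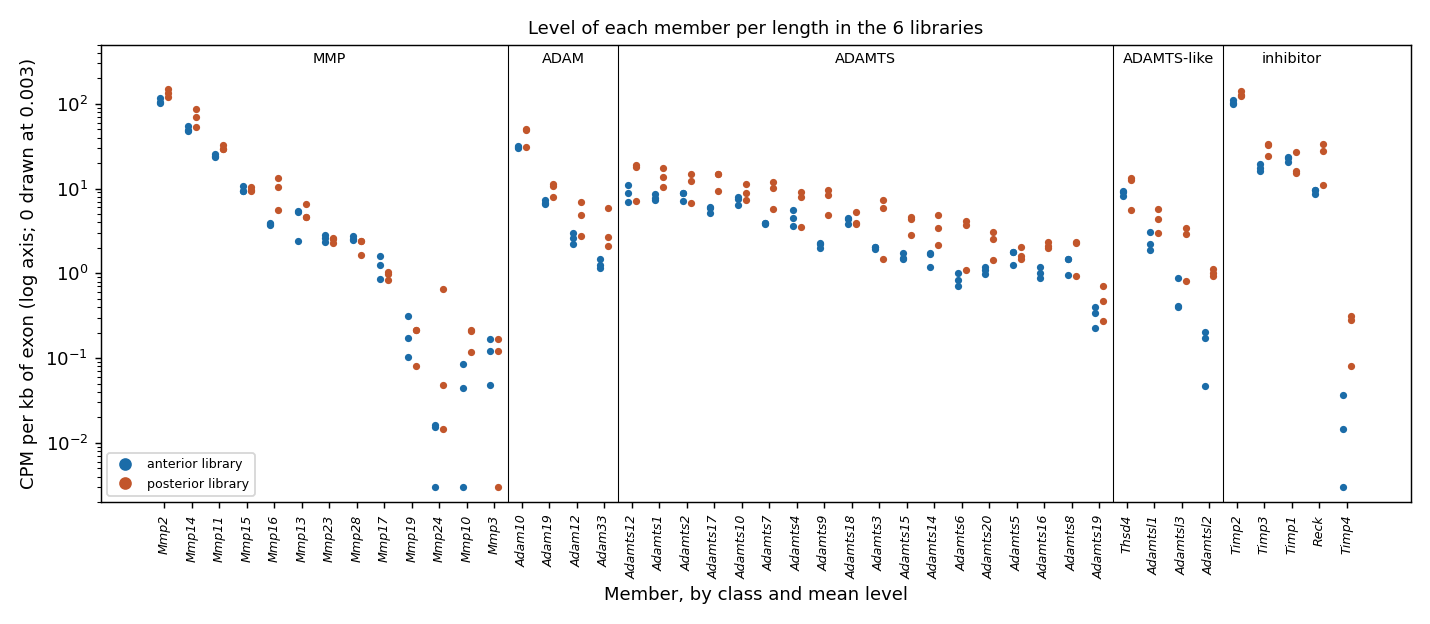
CPM per kb of exon on a log axis for all 44 members by class, with 1 point for each anterior (blue) and posterior (orange) library and a value of 0 drawn at 0.003. Mmp2 and Timp2 stand highest, with means of 121 and 118 CPM per kb over the 6 libraries, and Mmp3, Mmp10, Mmp24 and Timp4, which were not tested, lie at the bottom with Mmp19.

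None of the 4 ADAM genes passed edgeR's test in the region-only fit. DESeq2 called 3 of them higher in the posterior palate, against 8.56% of all genes tested. The median log2 fold change of the class was 0.72 (0.14 with the library-group term). Adam10, which releases the ectodomains of Notch receptors and cadherins, was the most abundant per length, with 31.0 and 43.6 CPM per kb. It had 147, 156 and 154 CPM in the anterior libraries and 154, 244 and 245 CPM in the posterior ones. Posterior replicate 1 was thus level with the anterior palate while the others were higher. For Adam10 the log2 fold change was 0.49 ± 0.18 (SE, adjusted p = 0.144) and 0.01 with the term. Adam12 and Adam19, the meltrins, had log2 fold changes of 0.90 ± 0.31 (SE, adjusted p = 0.13) and 0.53 ± 0.14 (SE, adjusted p = 0.0723), which were 0.08 and 0.20 with the term.

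Adam33 had the opposite arrangement of posterior libraries. It had 8.04, 6.25 and 6.84 CPM in the anterior libraries and 32.0, 11.2 and 14.4 CPM in posterior replicates 1, 2 and 3. All posterior libraries were above the anterior ones, with posterior replicate 1 the highest. Its log2 fold change was 1.44 ± 0.39 (SE, adjusted p = 0.069) in the region-only fit, and 2.18 ± 0.19 (SE, adjusted p = 0.000456) with the library-group term, where it was called. Leaving out posterior replicate 1 gave a log2 fold change of 0.87 and an adjusted p of 0.00505 in edgeR.

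The ADAMTS proteases held most of the calls, with 7 of 18 genes higher in the posterior palate, against 4.87% of all genes tested. All 18 had a positive log2 fold change, with a median of 0.94. With the library-group term 10 were positive, the median was 0.19 and 5 were called posterior, against 4.4% of all genes tested. All posterior libraries exceeded all anterior ones for 9 of the 18 genes, against the 14.7% of all genes tested given above. Summed over the class, the level was 67.3, 59.7 and 65.6 CPM per kb in the anterior libraries and 72.5, 124 and 145 CPM per kb in posterior replicates 1, 2 and 3. Posterior replicate 1 was thus only a little above the anterior range in the class as a whole, although single genes of the class stood well above it.

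The proteoglycan-cleaving genes Adamts1, Adamts4, Adamts5, Adamts8, Adamts9, Adamts15 and Adamts20 held 4 of these calls. Mutant mice have shown that cleavage of versican by Adamts9 and Adamts20 together is needed for closure of the palate. Adamts9 (ENSMUSG00000030022.15, chromosome 6 from 92772699 to 92943492) had 30.1, 34.0 and 33.1 CPM in the anterior and 72.8, 127 and 144 CPM in the posterior libraries. All posterior libraries were far above the anterior ones, and posterior replicate 1 was the lowest of them. For Adamts9 the log2 fold change was 1.82 ± 0.24 (SE, adjusted p = 0.00456 from edgeR), it was 1.17 ± 0.10 (SE, adjusted p = 0.000532) with the library-group term, and the gene was called whichever library was left out, with log2 fold changes between 1.63 and 2.07.

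Adamts15 (ENSMUSG00000033453.9, chromosome 9 from 30899155 to 30922452) had 15.3, 15.6 and 17.8 CPM in the anterior and 29.0, 46.0 and 47.3 CPM in the posterior libraries. Its log2 fold change was 1.33 ± 0.20 (SE, adjusted p = 0.00729), and 0.84 ± 0.12 (SE, adjusted p = 0.00533) with the term. The call again held with any library left out, with log2 fold changes between 1.21 and 1.53. Adamts20 (ENSMUSG00000022449.15, chromosome 15 from 94270163 to 94465418) had 8.88, 9.82 and 10.6 CPM in the anterior and 12.9, 23.1 and 27.8 CPM in the posterior libraries. Posterior replicate 1 was close to the anterior range, and the log2 fold change of 1.13 ± 0.27 (SE, adjusted p = 0.0497) lay just inside the threshold. With the library-group term it was 0.40 ± 0.18 (SE, adjusted p = 0.255).

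Adamts1 (ENSMUSG00000022893.15, chromosome 16 from 85793827 to 85803113) had 38.5, 41.4 and 45.7 CPM in the anterior and 55.1, 72.0 and 93.8 CPM in the posterior libraries. The groups did not overlap, and the log2 fold change was 0.82 ± 0.19 (SE, adjusted p = 0.0442). With the library-group term it was 0.40 ± 0.15 (SE, adjusted p = 0.195). The remaining proteoglycan-cleaving genes overlapped between the regions and did not pass the test. Adamts4 had a log2 fold change of 0.60 ± 0.34 (SE), Adamts8 of 0.51 ± 0.36 (SE) and Adamts5 of 0.08 ± 0.19 (SE). With the term these were -0.37, -0.50 and -0.14, and none passed the test there.

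The procollagen N-proteinases Adamts2, Adamts3 and Adamts14 were called by edgeR neither with region as the only term nor with the library-group term, while DESeq2 called Adamts3 (adjusted p = 0.0442) and Adamts14 (adjusted p = 0.00419). Adamts2 had 65.9 to 82.7 CPM in the anterior libraries and 63.0, 114 and 137 CPM in posterior replicates 1, 2 and 3. Adamts3 had 10.5 to 11.2 CPM in the anterior libraries and 7.94, 32.0 and 39.6 CPM in the posterior ones. In both genes posterior replicate 1 was the lowest of all 6 libraries and the other posterior replicates were the highest. Adamts2 had a log2 fold change of 0.44 ± 0.26 (SE, adjusted p = 0.326) that was -0.29 with the library-group term. Adamts3 had log2 fold changes of 1.28 ± 0.50 (SE, adjusted p = 0.165) in the region-only fit and of -0.46 ± 0.18 (SE, adjusted p = 0.203) with the library-group term. Adamts14 did not overlap between the regions, with 6.25 to 9.08 CPM against 11.2, 18.0 and 25.4 CPM, and had a log2 fold change of 1.18 ± 0.30 (SE, adjusted p = 0.0608) that was 0.48 with the library-group term.

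Adamts7 and Adamts12, a related pair that cleaves cartilage oligomeric matrix protein, differed in their calls. Adamts7 (ENSMUSG00000032363.16, chromosome 9 from 90163069 to 90208071) had 24.7, 23.8 and 24.5 CPM in the anterior and 36.5, 64.0 and 76.0 CPM in the posterior libraries. Its log2 fold change was 1.28 ± 0.25 (SE, adjusted p = 0.0223), and 0.58 ± 0.11 (SE, adjusted p = 0.0203) with the term. Of the reads over Adamts7, 10% lay on the other strand, where Tbc1d2b overlaps its exons. Adamts12 was the most abundant ADAMTS gene per length, at 8.97 and 14.7 CPM per kb. It had 120, 97.6 and 76.6 CPM in the anterior and 78.1, 195 and 208 CPM in the posterior libraries, so that posterior replicate 1 fell inside the anterior range. The log2 fold change of 0.71 ± 0.35 (SE, adjusted p = 0.25) did not pass the test, and it was -0.33 with the library-group term. The difference between the changes of Adamts7 and Adamts12 was not tested.

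Of Adamts6 and Adamts10, which act on fibrillin and microfibrils, neither was called by edgeR in the region-only fit or with the library-group term. Adamts6 had 5.53 to 7.89 CPM in the anterior libraries and 8.53, 28.9 and 32.3 CPM in the posterior ones, with a log2 fold change of 1.80 ± 0.46 (SE, adjusted p = 0.0588) that was 0.36 with the term. It was called by DESeq2 (adjusted p = 0.000631) and by edgeR with the length correction (adjusted p = 0.0471). The size of its change in the region-only fit was close to that of Adamts9, but it came from posterior replicates 2 and 3. Adamts10 had a log2 fold change of 0.33 ± 0.17 (SE, adjusted p = 0.255) that was 0.02 with the term.

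Adamts16 and Adamts17, from different pairs of the family, were called, and their paralogs Adamts18 and Adamts19 were not. Adamts16 (ENSMUSG00000049538.15, chromosome 13 from 70727802 to 70841811) had 6.83, 5.96 and 8.22 CPM in the anterior and 13.8, 14.2 and 16.1 CPM in the posterior libraries. All 3 posterior libraries were close together, and the log2 fold change was 1.07 ± 0.17 (SE, adjusted p = 0.0085) and 0.98 ± 0.20 (SE, adjusted p = 0.0246) with the library-group term. Without anterior replicate 1 or anterior replicate 2 the adjusted p rose to 0.0552 and 0.0508.

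Adamts17 (ENSMUSG00000058145.17, chromosome 7 from 66839735 to 67153171) had 46.5, 39.6 and 45.9 CPM in the anterior and 72.2, 116 and 115 CPM in the posterior libraries. The log2 fold change was 1.20 ± 0.19 (SE, adjusted p = 0.00948), and 0.72 ± 0.10 (SE, adjusted p = 0.00452) with the term. Its call was lost without anterior replicate 2 (adjusted p = 0.0592) and held without any of the other 5 libraries. Adamts18 had 38.5 to 45.8 CPM in the anterior and 38.5 to 54.2 CPM in the posterior libraries, with a log2 fold change of 0.04 ± 0.15 (SE, adjusted p = 0.887), and Adamts19 had 0.58 ± 0.37 (SE, adjusted p = 0.353), which was -0.25 with the library-group term.

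The calls of Mmp16, Timp3, Adamts1, Adamts7 and Adamts20 were kept in 1 of the 6 fits that left out a library, the fit without posterior replicate 1. In the other 5 such fits their adjusted p-values reached 0.122, 0.123, 0.182, 0.106 and 0.191. Without posterior replicate 1 the count of members called in the posterior palate was 31, against 25.3% of all genes tested, and that in the anterior palate was 1, Timp1, against 21.1%. The posterior count was 4, 3 and 5 without anterior replicates 1, 2 and 3, against 2.4%, 2.32% and 2.93% of all genes tested, and 5 and 5 without posterior replicates 2 and 3, against 2.03% and 2.44%.

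**Figure D3:**
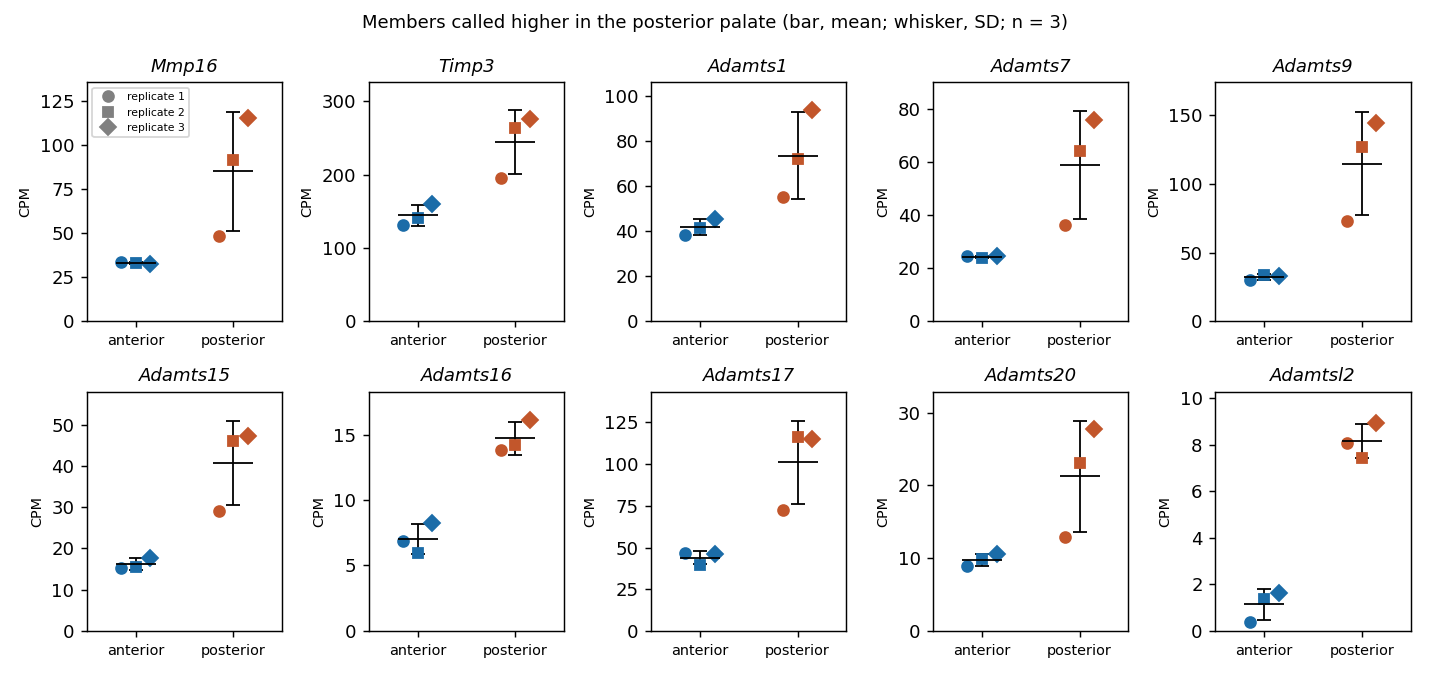
CPM in each library for the 10 members called higher in the posterior palate, with the library as a point (replicate 1 circle, 2 square, 3 diamond), the mean as a bar and the SD as a whisker (n = 3 per region), on linear axes that start at 0. In Adamtsl2 and Adamts16 the 3 posterior libraries lie close together, while in all the other members shown posterior replicate 1 lies between the anterior libraries and the other posterior ones.

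The ADAMTS-like gene Adamtsl2 had the largest change of the 40 members in the region-only fit. Its product binds fibrillin microfibrils and latent TGF-beta binding protein. Adamtsl2 (ENSMUSG00000036040.15, chromosome 2 from 27079379 to 27108981) had 5, 19 and 19 counts in the anterior and 108, 103 and 130 counts in the posterior libraries. These counts correspond to 0.379, 1.38 and 1.64 CPM and to 8.08, 7.44 and 8.91 CPM, so it was a rare transcript in both regions. The posterior libraries lay close together, posterior replicate 1 included, and far above the anterior ones. Its fold change on the log2 scale was 2.85 ± 0.41 (SE, adjusted p = 0.00633), it was 2.84 ± 0.46 (SE, adjusted p = 0.00878) with the library-group term, and the call held whichever library was left out, with log2 fold changes between 2.42 and 3.18.

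The other ADAMTS-like genes were not called by edgeR in the region-only fit, while DESeq2 called Adamtsl1 (adjusted p = 0.0164) and Adamtsl3 (adjusted p = 0.000685). Adamtsl3 had 6.75, 3.2 and 3.11 CPM in the anterior and 6.36, 26.6 and 22.8 CPM in the posterior libraries, with a log2 fold change of 2.09 ± 0.55 (SE, adjusted p = 0.0655) that was 0.54 with the library-group term. Adamtsl1 had a log2 fold change of 0.87 ± 0.26 (SE, adjusted p = 0.0961) that was 0.33 with the term. Thsd4, which takes part in fibrillin microfibril assembly, was the most abundant of the class per length at 8.87 and 10.5 CPM per kb. It had 128, 115 and 130 CPM in the anterior libraries and 77.8, 175 and 189 CPM in posterior replicates 1, 2 and 3. The posterior libraries thus lay on both sides of the anterior ones. The log2 fold change was 0.25 ± 0.30 (SE, adjusted p = 0.611) in the region-only fit and -0.67 ± 0.10 (SE, adjusted p = 0.00556) with the library-group term, and it was 0.56 with an adjusted p of 0.000677 in edgeR without posterior replicate 1. The direction for Thsd4 therefore depended on which posterior libraries were read. The paper lists Thsd4 among the marker genes of its anterior mesenchymal subpopulation, from single-cell rather than whole-tissue data. The class median was 1.48 in the region-only fit and 0.43 with the term.

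**Figure D4:**
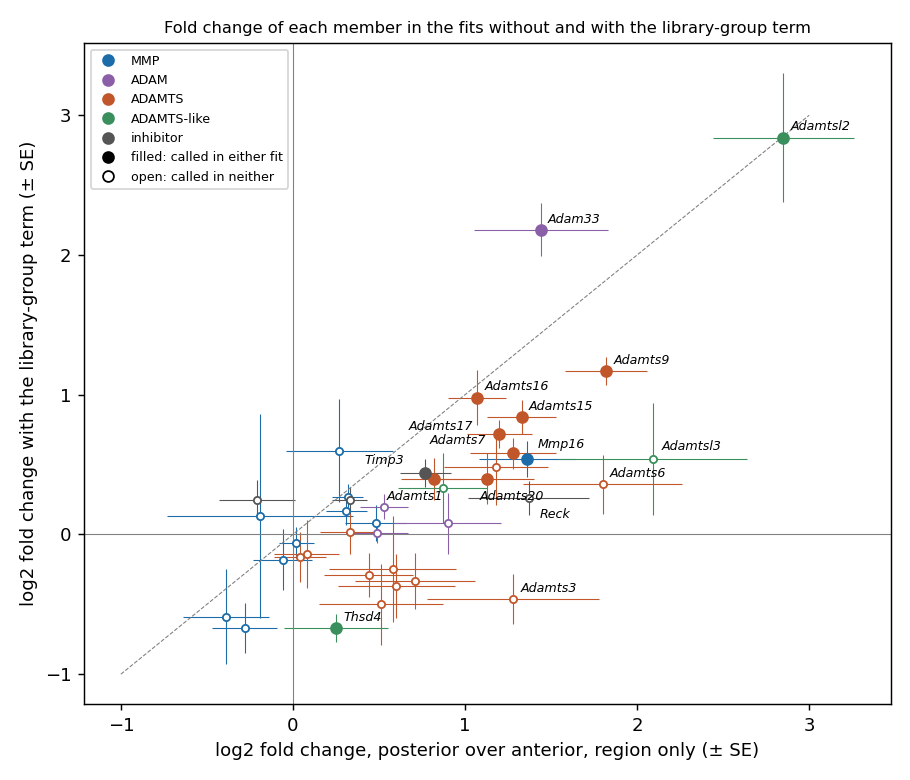
Log2 fold change of each of the 40 members in the region-only fit (horizontal) against the fit with the library-group term (vertical), both posterior over anterior with standard errors as bars, coloured by class, filled where called in either fit and with the diagonal dashed. Adamtsl2 and Adamts16 lie near the diagonal, Adam33 above it, and 12 members have different signs on the 2 axes, Thsd4 and Adamts3 among them.

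The start regions of called genes are shown to give the sequence context of the genes that differed. RefSeq's table on GRCm38.p6 held the 250 bases before the start of 28 members, in 32 entries, and gave a single start for 6 of the 10 called members. The 4 below are those whose start lies at, or just outside, the 5′ end of the gene model used for the positions given here, and they are written 5′ to 3′ on the gene's strand. Capitals mark matches on either strand to the GC box GGGCGG, the TATA box TATAAA, the E-box CAGCTG or the homeodomain core TAATTA, of which none overlapped another.
Adamts9 (chr6:92943535-92943784, minus strand): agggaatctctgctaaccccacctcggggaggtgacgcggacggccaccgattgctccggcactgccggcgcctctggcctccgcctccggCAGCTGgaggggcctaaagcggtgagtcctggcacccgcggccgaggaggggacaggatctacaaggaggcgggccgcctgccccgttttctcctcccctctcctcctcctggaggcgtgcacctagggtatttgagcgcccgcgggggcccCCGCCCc
Adamts1 (chr16:85803114-85803363, minus strand): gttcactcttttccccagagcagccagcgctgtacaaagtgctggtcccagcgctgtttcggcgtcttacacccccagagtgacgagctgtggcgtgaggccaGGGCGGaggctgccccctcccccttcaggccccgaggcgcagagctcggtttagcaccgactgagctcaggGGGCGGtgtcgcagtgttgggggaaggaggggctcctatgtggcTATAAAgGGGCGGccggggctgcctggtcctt
Adamts17 (chr7:66839485-66839734, plus strand): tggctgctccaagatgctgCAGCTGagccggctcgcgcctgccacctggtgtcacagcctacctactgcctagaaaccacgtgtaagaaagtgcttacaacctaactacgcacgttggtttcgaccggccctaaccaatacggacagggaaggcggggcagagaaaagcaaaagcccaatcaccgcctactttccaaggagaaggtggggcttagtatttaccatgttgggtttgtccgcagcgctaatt
Adamtsl2 (chr2:27079129-27079378, plus strand): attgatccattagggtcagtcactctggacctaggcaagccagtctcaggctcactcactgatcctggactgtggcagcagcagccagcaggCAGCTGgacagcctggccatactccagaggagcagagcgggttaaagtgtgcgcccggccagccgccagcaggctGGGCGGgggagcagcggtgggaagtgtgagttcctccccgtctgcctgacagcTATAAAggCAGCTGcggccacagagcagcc

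The GC box occurred 1 time in the Adamts9 window, 3 times in that of Adamts1, 1 time in that of Adamtsl2 and 0 times in that of Adamts17, and 32.7% of the 32851 mouse promoter windows in the table hold it. The TATA box stood in the windows of Adamts1 and Adamtsl2 (12.4% of all windows). The E-box stood in those of Adamts9, Adamts17 and, at 2 places, Adamtsl2 (13% of all windows). The homeodomain core was in none of these 4 windows (4.84% of all windows). Over all members, 20 of the 32 entries held the GC box, 5 the TATA box, 10 the E-box and 1 the homeodomain core. None of these 4 motifs occurred in all 4 windows. These are matches of letters only.

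Among the inhibitors, Timp3 was called and the median log2 fold change of the 4 genes tested was 0.55 (0.26 with the library-group term). Timp3 (ENSMUSG00000020044.14, chromosome 10 from 86300372 to 86349506), which binds to the matrix and inhibits ADAM and ADAMTS proteases as well as MMPs, had 132, 141 and 160 CPM in the anterior and 195, 263 and 276 CPM in the posterior libraries. The groups did not overlap. The log2 fold change was 0.77 ± 0.15 (SE, adjusted p = 0.0237), and 0.44 ± 0.10 (SE, adjusted p = 0.0438) with the library-group term. Without posterior replicates 2 and 3 it was 0.44 as well, with an adjusted p of 0.0526 from edgeR, where the spread comes from the anterior libraries alone. Syn3, on the other strand, overlaps the exons of Timp3, but 0.41% of the reads lay on that strand.

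Timp2, which with Mmp14 forms the complex that activates Mmp2, was the most abundant inhibitor, with 104 and 131 CPM per kb. It had 403, 387 and 429 CPM in the anterior and 485, 501 and 549 CPM in the posterior libraries. The regions did not overlap, and the log2 fold change of 0.33 ± 0.10 (SE, adjusted p = 0.0957 from edgeR) did not pass the test, whereas DESeq2 gave an adjusted p of 0.018. Reck, a membrane-anchored MMP inhibitor, had 41.7, 46.5 and 45.9 CPM in the anterior and 53.4, 133 and 160 CPM in the posterior libraries. Its posterior libraries were split in the same way as those of Adamts6, and the log2 fold change was 1.37 ± 0.35 (SE, adjusted p = 0.0617) and 0.26 with the term, while DESeq2 called it (adjusted p = 0.000826). Timp1 had 18.5 to 20.8 CPM in the anterior libraries, 23.7 CPM in posterior replicate 1 and 13.7 and 14.5 CPM in posterior replicates 2 and 3, with a log2 fold change of -0.21 ± 0.22 (SE, adjusted p = 0.556) that was 0.25 with the term. It was the member called higher in the anterior palate without posterior replicate 1 (log2 fold change -0.50, adjusted p = 0.00813 from edgeR). Timp4, under the count filter, had 0, 3 and 1 counts in the anterior and 25, 23 and 7 counts in the posterior libraries, and 37.9% of the reads over it lay on the other strand, where Syn2 overlaps it. All its posterior libraries were above the anterior ones, and the edgeR fit without the count filter called it (adjusted p = 0.00517).

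Per length, 5 genes held most of the members' summed level. Mmp2, Timp2, Mmp14, Adam10 and Mmp11 together made up 65.2%, 66.8% and 67.1% of it in the anterior libraries and 65.6%, 60.2% and 60% in posterior replicates 1, 2 and 3. None of the 5 passed the test in the region-only fit by edgeR. The called genes other than Timp3 had means of at most 13.9 CPM per kb in either region, the level of Adamts1 in the posterior palate. The 35 MMP, ADAM and ADAMTS genes summed to 308, 304 and 330 CPM per kb in the anterior and to 352, 457 and 519 CPM per kb in the posterior libraries. The 4 TIMP genes summed to 143, 140 and 151 CPM per kb and to 175, 177 and 191 CPM per kb. Both sums were higher in every posterior than in every anterior library. The ratio of the TIMP sum to the protease sum was 0.465, 0.46 and 0.456 in the anterior libraries and 0.499, 0.386 and 0.368 in posterior replicates 1, 2 and 3, so it lay above the anterior range in the first of these and below it in the others.

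The other genes of the same systems were read from a list of 44 further extracellular proteases, their cofactors and inhibitors, of which 38 were tested. In the region-only fit 6 were called higher in the posterior and 3 in the anterior palate, against 4.87% and 2.59% of all genes tested, with a median log2 fold change of 0.20. With the library-group term 3 were called posterior and 6 anterior, against 4.4% and 3.21%, and the median was -0.024. The smallest adjusted p-value was that of Htra1, a secreted serine protease, with 27.8, 27.0 and 25.5 CPM in the anterior and 68.8, 50.1 and 63.4 CPM in the posterior libraries (log2 fold change 1.18 ± 0.13, SE, adjusted p = 0.00259). Prss23, another secreted serine protease, was also higher in the posterior palate, with 28.9, 33.4 and 39.1 CPM against 80.4, 145 and 89.8 CPM (log2 fold change 1.64 ± 0.24, SE, adjusted p = 0.00637).

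The gelatinase gene Mmp9 was called higher in the anterior palate, with 62.1, 68.9 and 95.3 CPM in the anterior and 11.2, 23.8 and 21.4 CPM in the posterior libraries (log2 fold change -2.0 ± 0.29, SE, adjusted p = 0.00633). In bone, osteoclasts are its abundant source. Of the 8 myeloid and osteoclast markers, 3 (Acp5, Ocstamp and Dcstamp) were called anterior. Ocstamp and Dcstamp had at most 22 counts in any library, and the call of Ocstamp was lost with the library-group term. The log2 fold change was negative for 6 markers and positive for 2, C1qa (0.47) and Ptprc (0.36), neither of them called. The summed level of the list was 97.6 to 109 CPM in the anterior and 74.7 to 84.6 CPM in the posterior libraries. The part of these cells in the Mmp9 result was not tested. The enhancers of procollagen C-proteinase were called in opposite directions. Pcolce2 was higher in the anterior palate, with 39.0, 36.1 and 22.2 CPM against 2.4, 3.4 and 7.89 CPM (log2 fold change -2.82 ± 0.43, SE, adjusted p = 0.00768), and Pcolce in the posterior palate, with 79.0, 97.4 and 87.4 CPM against 151, 131 and 161 CPM (log2 fold change 0.75 ± 0.12, SE, adjusted p = 0.00997).

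Of 16 matrix substrates, 15 were tested. DESeq2 called 8, all posterior, against 8.56% of all genes tested. By edgeR 3 were called, all higher in the posterior palate, against 4.87% of all genes tested. They were Fbn2, a fibrillin (log2 fold change 1.36 ± 0.19, SE, adjusted p = 0.00613), Col2a1, the cartilage collagen (2.57 ± 0.20, SE, adjusted p = 0.000517), and Col3a1, a fibrillar collagen (0.88 ± 0.20, SE, adjusted p = 0.0415). The call of Col3a1 was lost with the library-group term (0.44, adjusted p = 0.0645). Versican, the substrate of Adamts9 and Adamts20, was not called by edgeR and was called by DESeq2 (adjusted p = 0.00925). Vcan had 606, 646 and 637 CPM in the anterior and 613, 1610 and 1910 CPM in the posterior libraries, with posterior replicate 1 level with the anterior palate. Its log2 fold change was 1.13 ± 0.37 (SE, adjusted p = 0.114) and -0.04 with the library-group term. With the term 2 substrates were called higher in the posterior palate, against 4.4% of all genes tested, and 1, Nid1, in the anterior palate, against 3.21%.

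Markers of some other cell types also differed between the regions. Each of the 10 skeletal muscle markers passed the test as higher in the posterior palate, with a summed level of 10.2 to 12.5 CPM in the anterior and 586 to 1030 CPM in the posterior libraries. Of the chondrocyte markers, which share Col2a1 and Acan with the substrates, 3 of the 7 tested were called posterior, with sums of 432 to 525 CPM against 888 to 1680 CPM, and of the osteoblast markers 2 of the 7 tested were called anterior, with sums of 1990 to 3590 CPM against 297 to 1830 CPM. With the library-group term 4 chondrocyte markers were called posterior and 6 osteoblast markers anterior, and by DESeq2 6 and 5. Of the epithelial markers 1 of 8 was called, Trp63 in the anterior palate, with sums of 1310 to 1430 CPM against 933 to 1540 CPM, while DESeq2 called 2 anterior (Trp63 and Krt5) and the fit with the library-group term called 1 in each direction. Of the dental markers 4 of 7 were tested, and 1, Ambn, was called anterior and 1, Barx1, posterior. By DESeq2 2 were called anterior, Ambn and Tfap2b, and 1 posterior, Barx1. The list summed to 129 to 415 CPM in the anterior and 322 to 494 CPM in the posterior libraries. Barx1 alone made up most of the posterior sums, with 384, 240 and 268 CPM against 45.5, 64.9 and 139 CPM in the anterior libraries. By edgeR 0 of the 7 endothelial markers were called in the region-only fit, DESeq2 called 1, Kdr, posterior and the fit with the library-group term 1, Cdh5, anterior, with sums of 445 to 468 CPM against 390 to 631 CPM. Of the 6 mesenchyme markers 1, Prrx1, was called anterior and 2, Twist1 and Pdgfra, posterior, with a list median log2 fold change of 0.64 and sums of 1740 to 1910 CPM against 1540 to 1840 CPM, so that mesenchyme was present in both regions. Prrx1 had 1080, 1040 and 1060 CPM in the anterior and 390, 400 and 460 CPM in the posterior libraries. The part of these cell types in the members' differences was not tested.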

How the data were processed

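Bulk RNA-seq of 3 anterior and 3 posterior E14.0 palate libraries, grouped by their labels, was analysed. The values the authors deposited are raw read counts by Ensembl gene, unstranded and for each strand, not normalized. Their methods and processing notes name HISAT2, mm10, StringTie and DESeq2 1.30.1, and the layout is that of STAR's gene counts. The annotation release is not given in the sources used here. Reverse-strand counts, 18.95 to 23.08 times those of the other strand, were used. Rows that name no gene (18.08% to 22.23% of reads) were left out.

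A gene entered the test when 3 or more libraries held 10 or more counts of it. The test was edgeR's (version 4.0.16, R 4.3.3; TMM, quasi-likelihood, Benjamini-Hochberg over all 15673 genes tested, threshold 0.05), with region as the only term. Symbols, positions and exon lengths came from GENCODE M21 on GRCm38. Versions of the identifiers were dropped, since 35 had the M21 version, and 52073 identifiers had a symbol. Replicates differed by more than sampling noise (chi-square per gene 3.48 to 69.0).

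The members and lists were chosen with earlier results of these data known. Named with all values were members called in the region-only fit or with the library-group term, the highest per kb in each class and Thsd4 (those under the count filter by range), and of the other proteases the 5 smallest adjusted p-values. Further members, substrates and markers were named after their values were seen. The library-group term parts libraries where the multimapping share has its widest gap. Alternatives were DESeq2 1.42.0, RLE normalization, no count filter, unstranded counts, the replicate block, the library-group term, leaving out posterior replicates 2 and 3 together, a length correction (lowess, span 0.3) and leaving out each library. The region-only fits of edgeR and DESeq2, the length correction and the replicate block were run on simulated counts. That simulation gave all libraries the same spread, without the split between the posterior libraries. The fits with the library-group term or with libraries left out were not simulated. The study's multiome data were not analysed here.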

Additional observations from a re-analysis of the deposited data

How the results depend on the processing

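Of the 40 members' log2 fold changes under 8 alternatives, 259 values kept their direction and side of the threshold, 26 became called, 6 lost their call and 28 reversed. The members called in the posterior palate numbered 20 with DESeq2 and 21 without the count filter, against 10, and 8 to 14 under the other 6 alternatives. They ranged from 3 to 31 with each replicate left out, the 31 without posterior replicate 1, and those called anterior from 0 to 1. Those called anterior numbered 1, Thsd4, with the library-group term and 1 without posterior replicates 2 and 3. The other proteases called ranged from 4 to 23 with a replicate left out (23 without posterior replicate 1), and the median of the MMPs from -0.0073 to 0.29. Over all genes DESeq2 called 1978 against 1169, the fit without the count filter 2162 of 30259, the library-group term 1192 and the fits without 1 replicate 498 to 7119. The library-group term and the fit without posterior replicates 2 and 3 moved the medians to 0.14 for the ADAMs, 0.19 for the ADAMTS genes and 0.43 for the ADAMTS-like genes. Both reversed Mmp15 (-0.057 and -0.058), Timp1 (0.25 and 0.24), Adamts2 (-0.29), Adamts3 (-0.46), Adamts4 (-0.37), Adamts5 (-0.14), Adamts8 (-0.50), Adamts12 (-0.33), Adamts18 (-0.16), Adamts19 (-0.25) and Thsd4 (-0.67), and the term also Mmp19 (0.13). The length correction reversed Mmp15 (-0.041), Mmp23 (0.059), Adamts5 (-0.17), Adamts18 (-0.20) and Thsd4 (-0.15). Leaving out 1 replicate turned the sign of Mmp13 (-0.025 to 0.45), Mmp15 (-0.027 to 0.085), Mmp19 (-0.52 to 0.13), Mmp23 (-0.13 to 0.0062), Adamts5 (-0.076 to 0.19) and Adamts18 (-0.13 to 0.13). Among the values that reversed, Thsd4's was called under the term and without posterior replicates 2 and 3, both of which rest on 1 posterior library assumed to vary like the others. Calls lost were those of Adamts1 and Adamts20 in both these fits, of Timp3 (adjusted p = 0.0526 from edgeR) without posterior replicates 2 and 3, and of Adamts20 on unstranded counts. The cause was not tested. Same-numbered libraries did not deviate together (correlations -0.0527, 0.045 and 0.0355). This cannot settle whether libraries were paired, since posterior replicate 1 stood far from replicates 2 and 3 (chi-square per gene 54 and 69). With the replicate number as a block 11 members were called posterior and 0 anterior, with 8 other proteases and 829 of all 15673 genes, against 1169. Mmp3, Mmp10, Mmp24 and Timp4 were compared only without the count filter, where Mmp24 and Timp4 are among the 21 called.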
